A study of Mus musculus with 3 samples.

Results

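The genes described here are 34 endothelial cell genes, taken from a fixed list of symbols and found by symbol among the 32285 genes of each count matrix. They were followed through uterine sections of Mus musculus at pregnancy day 7.5, measured as 3 Visium libraries. On a Visium slide the RNA under each barcoded spot is counted together, and 1 spot can cover several cells. The females had been housed with littermates to an age of 8 weeks, were mated with stud males, and received no other treatment. All sections belong to that 1 group. The first library combines biological replicates 1 and 2 in a single matrix and counts as 1 replicate, so n is at most 3. Values given as triples follow the order replicates 1 and 2, replicate 3, replicate 4.

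Endothelial cells line blood and lymphatic vessels. VEGF receptors and the angiopoietin receptor Tek on their surface read growth factors made by the tissue around them, and cadherin and claudin junctions hold the cells together. In the pregnant rodent uterus, the stroma around an implanted embryo turns into decidua, and vessels of the decidua widen and multiply before a placenta exists. The 34 genes comprise 19 pan-endothelial genes, 4 capillary genes (Kdr, Flt1, Plvap, Emcn), 3 venous genes (Aplnr, Nrp2, Ephb4), 4 arterial genes (Sox17, Nrp1, Efnb2, Dll4) and 4 lymphatic genes (Flt4, Lyve1, Prox1, Pdpn). Several are not restricted to vessels: Pdpn and Nrp2 are also made by fibroblasts or smooth muscle, Lyve1 by some macrophages, Vwf by megakaryocytes and Flt1 by trophoblast. A sum of 9 pan-endothelial genes (Pecam1, Cdh5, Tie1, Esam, Egfl7, Robo4, Mmrn2, Icam2 and Erg) is called the core below.

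Of 3978 spots, the 3939 with at least 1000 UMIs (unique molecular identifiers, 1 per captured RNA molecule) were grouped into 16 regions on genes outside all lists, and 15 regions entered the tests. Regions are named by a gene high in them and are tissue areas, not cell types: Qrfpr (278 spots), Prf1 (277 spots, with the granzymes of natural killer cells), Erv3 (349 spots, rich in the decidual prolactin gene Prl8a2, which was higher still in the Tnnc1 region), Dio3 (255 spots), Myh11 (146 spots, muscle genes), Col3a1 (453 spots, collagen genes, although the stromal genes Sfrp4, Pdgfra, Dcn and Col1a2 were highest elsewhere), Prl3d1 (132 spots, trophoblast genes) and Apoa1 (54 spots, endoderm genes). The other 7 are Stmn2, Srd5a1, Frem1, Spink1, Sfrp5, Nppa and Tnnc1. Of the other genes that chose the Erv3 region, Prl3c1 and Cryab were also highest in the Tnnc1 region, and Fkbp5 was highest in the Dio3 region. The libraries held 1811, 1081 and 1086 spots with medians of 8038, 26543 and 28286 UMIs, so the first library carries the largest counting error. The Apoa1 and Tnnc1 regions had no spot in replicate 3 and rest on 2 libraries. Between 676 and 825 spot barcodes were shared by each pair of libraries. Because cells are counted together, fewer endothelial cells and less RNA per cell cannot be told apart in any value below.

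The upstream windows of 4 of these genes that differed between the Qrfpr and Erv3 regions are shown: Cldn5, Tek and Eng were higher in the Qrfpr region and Dll4 was lower. They were chosen after their values were seen, among genes whose window lies outside the annotated gene. Efnb2, Pdpn and Erg changed more than Eng and have such windows too, which are not shown. Each is the 250 bases before the RefSeq start site (GRCm38.p6), written 5′ to 3′ on the gene's strand: Cldn5 at chr16:18776597-18776846, Tek at chr4:94739039-94739288, Eng at chr2:32646345-32646594 and Dll4 at chr2:119325534-119325783, all on the plus strand. Capitals mark matches on either strand to the letters AGGAAG (a core of many ETS factor sites), to AACAAT (bound by many SOX factors) or to AGATAA (bound by factors of the GATA family).
Cldn5: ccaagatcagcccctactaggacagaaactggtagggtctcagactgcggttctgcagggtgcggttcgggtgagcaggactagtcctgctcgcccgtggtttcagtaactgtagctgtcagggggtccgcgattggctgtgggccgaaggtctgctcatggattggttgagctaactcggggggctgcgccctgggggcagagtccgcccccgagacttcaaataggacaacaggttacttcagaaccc
Tek: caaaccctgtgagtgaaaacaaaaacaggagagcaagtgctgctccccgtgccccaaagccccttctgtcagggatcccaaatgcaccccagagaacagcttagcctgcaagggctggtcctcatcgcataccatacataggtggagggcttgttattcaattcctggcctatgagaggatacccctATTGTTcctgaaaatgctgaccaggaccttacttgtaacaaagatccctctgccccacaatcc
Eng: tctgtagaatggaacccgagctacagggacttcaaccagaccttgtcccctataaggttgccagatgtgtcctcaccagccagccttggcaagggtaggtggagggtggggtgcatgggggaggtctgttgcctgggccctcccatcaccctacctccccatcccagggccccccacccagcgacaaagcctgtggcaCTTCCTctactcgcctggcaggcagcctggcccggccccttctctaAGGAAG
Dll4: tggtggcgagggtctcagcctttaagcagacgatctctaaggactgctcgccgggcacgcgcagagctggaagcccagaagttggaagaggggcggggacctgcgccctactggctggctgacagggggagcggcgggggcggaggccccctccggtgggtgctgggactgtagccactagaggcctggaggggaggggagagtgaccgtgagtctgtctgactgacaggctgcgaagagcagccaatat
The Eng window held 2 ETS matches, the Tek window 1 SOX match, and the Cldn5 and Dll4 windows none of the 3. RefSeq windows were matched for 19 of the 34 genes (24 windows). AGGAAG occurred in 10 of these 24 windows and in 29.5% of all 32851 windows, AACAAT in 3 and 9.42%, and AGATAA in 1 and 9.99%. A match describes letters only, and its absence says nothing of a factor.

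The core was highest in the Srd5a1 region, with 1146, 1625 and 1461 CPM (UMIs scaled to a total of 1000000 for each region in each library). The Prl3d1 region followed with 1021, 1243 and 1155 CPM and the Qrfpr region with 971, 1310 and 1037 CPM, and the 3 regions overlapped over libraries. The Myh11 region was lowest, at 112, 252 and 191 CPM. In the Erv3 region the core was close to 450 CPM in each library (435, 462 and 446). No library of the Myh11 region reached any library of another region. The largest parts of the Prl3d1 core mean of 1140 CPM came from Cdh5 (mean 477 CPM), Esam (275) and Pecam1 (199.5). The part of trophoblast cells in these 3 genes was not tested. Plain CPM is a share of all UMIs of a region and is not corrected for differences in RNA makeup. The scaling factors of edgeR's TMM method were 0.698 to 0.825 in the Erv3 region and 0.530 and 0.615 in the Tnnc1 region. They were 1.10 to 1.14 in the Qrfpr region. TMM scaling thus raises the Erv3 and Tnnc1 regions against the Qrfpr region, and orders of regions in plain CPM can change with it.

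**Figure D1:**
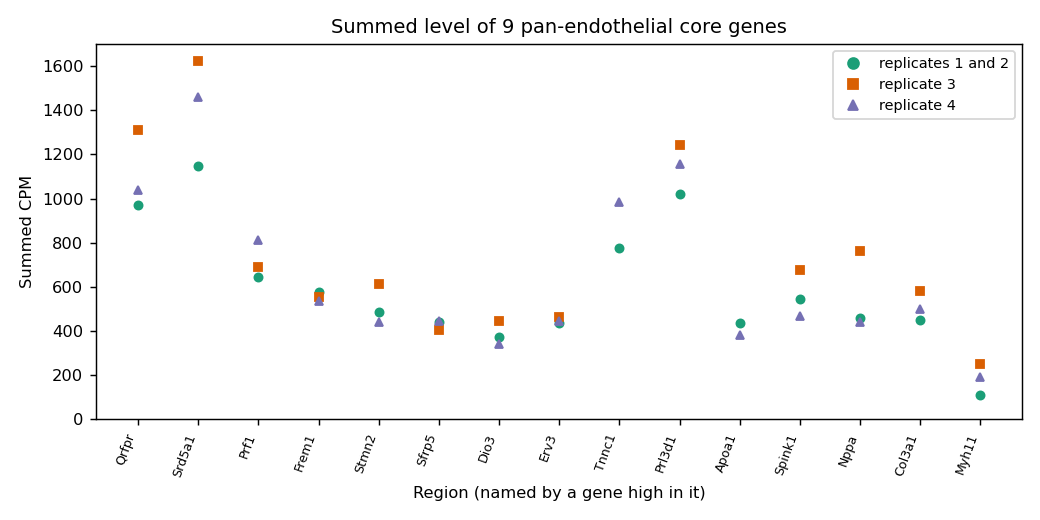
Summed CPM of the 9 core genes (vertical axis) in 15 regions (horizontal axis), with 1 point per library. The Srd5a1, Prl3d1 and Qrfpr regions sit highest, and the 3 points of the Myh11 region, between 112 and 252, sit below all others.

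The members did not share 1 pattern across regions. Cldn5, the main claudin of endothelial tight junctions, reached 193, 374 and 239 CPM in the Srd5a1 region and 178, 310 and 225 CPM in the Qrfpr region, but 2.34, 3.69 and 4.34 CPM in the Dio3 region, where all 3 libraries were below those of every other region. Vwf, the clotting factor carrier stored by endothelial cells, had 27.9, 40.6 and 23.1 CPM in the Qrfpr region and 1 UMI in all 3 libraries of the Dio3 region. Cdh5, the adherens junction cadherin, was instead highest in the Prl3d1 region with 428, 485 and 517 CPM, which overlapped with the Srd5a1 region (mean 414 ± 61.6, SD, n = 3). Pecam1, another junction protein, was highest in the Tnnc1 region with 208 and 262 CPM in its 2 libraries, which overlapped with the Prl3d1 region, where the highest library had 219 CPM.

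Plvap, which forms the diaphragms of fenestrated capillaries, had its own order. In plain CPM it was highest in the Dio3 region, with 167, 220 and 210 CPM. The Erv3 region was narrowly apart at 137, 166 and 162 CPM (means 199 ± 28.2 and 155 ± 15.9, SD, n = 3). The TMM factors of the Erv3 region were below those of the Dio3 region in each library, so this gap can close with TMM scaling. Plvap did not pass the test between these regions given below. Emcn, a capillary and venous sialomucin, was highest in the Qrfpr region at 304, 260 and 230 CPM, above all libraries of the Srd5a1 region (199, 154 and 140 CPM), while 1 library of the Prf1 region reached 239 CPM. Dll4, the Notch ligand of arterial and tip cells, was highest in the Prl3d1 region with 39.8, 71.2 and 51.7 CPM, and no other region reached these values. Flt4, the receptor of VEGF-C, was highest in the Srd5a1 region at 42.4, 63.3 and 61.3 CPM, again apart from all others.

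**Figure D2:**
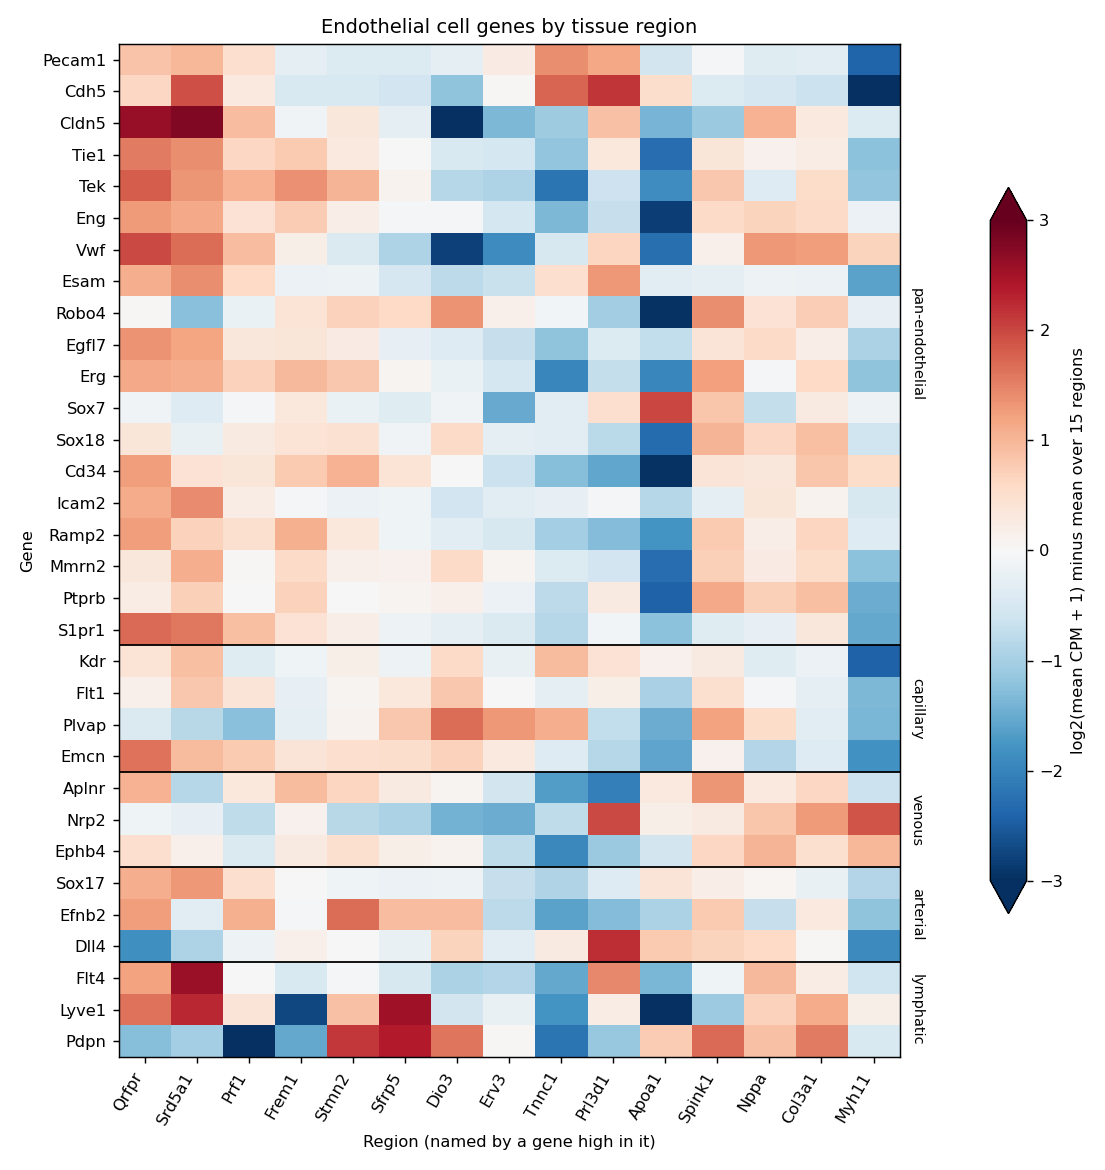
Level of 32 endothelial cell genes (rows, grouped by class) in 15 regions (columns), as log2(mean CPM + 1) minus the gene's mean over regions. Nrp1 and Prox1 are left out because of their low counts. Cldn5 and Vwf are dark red in the Qrfpr and Srd5a1 regions and dark blue in the Dio3 region, where Plvap is red.

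**Figure D3:**
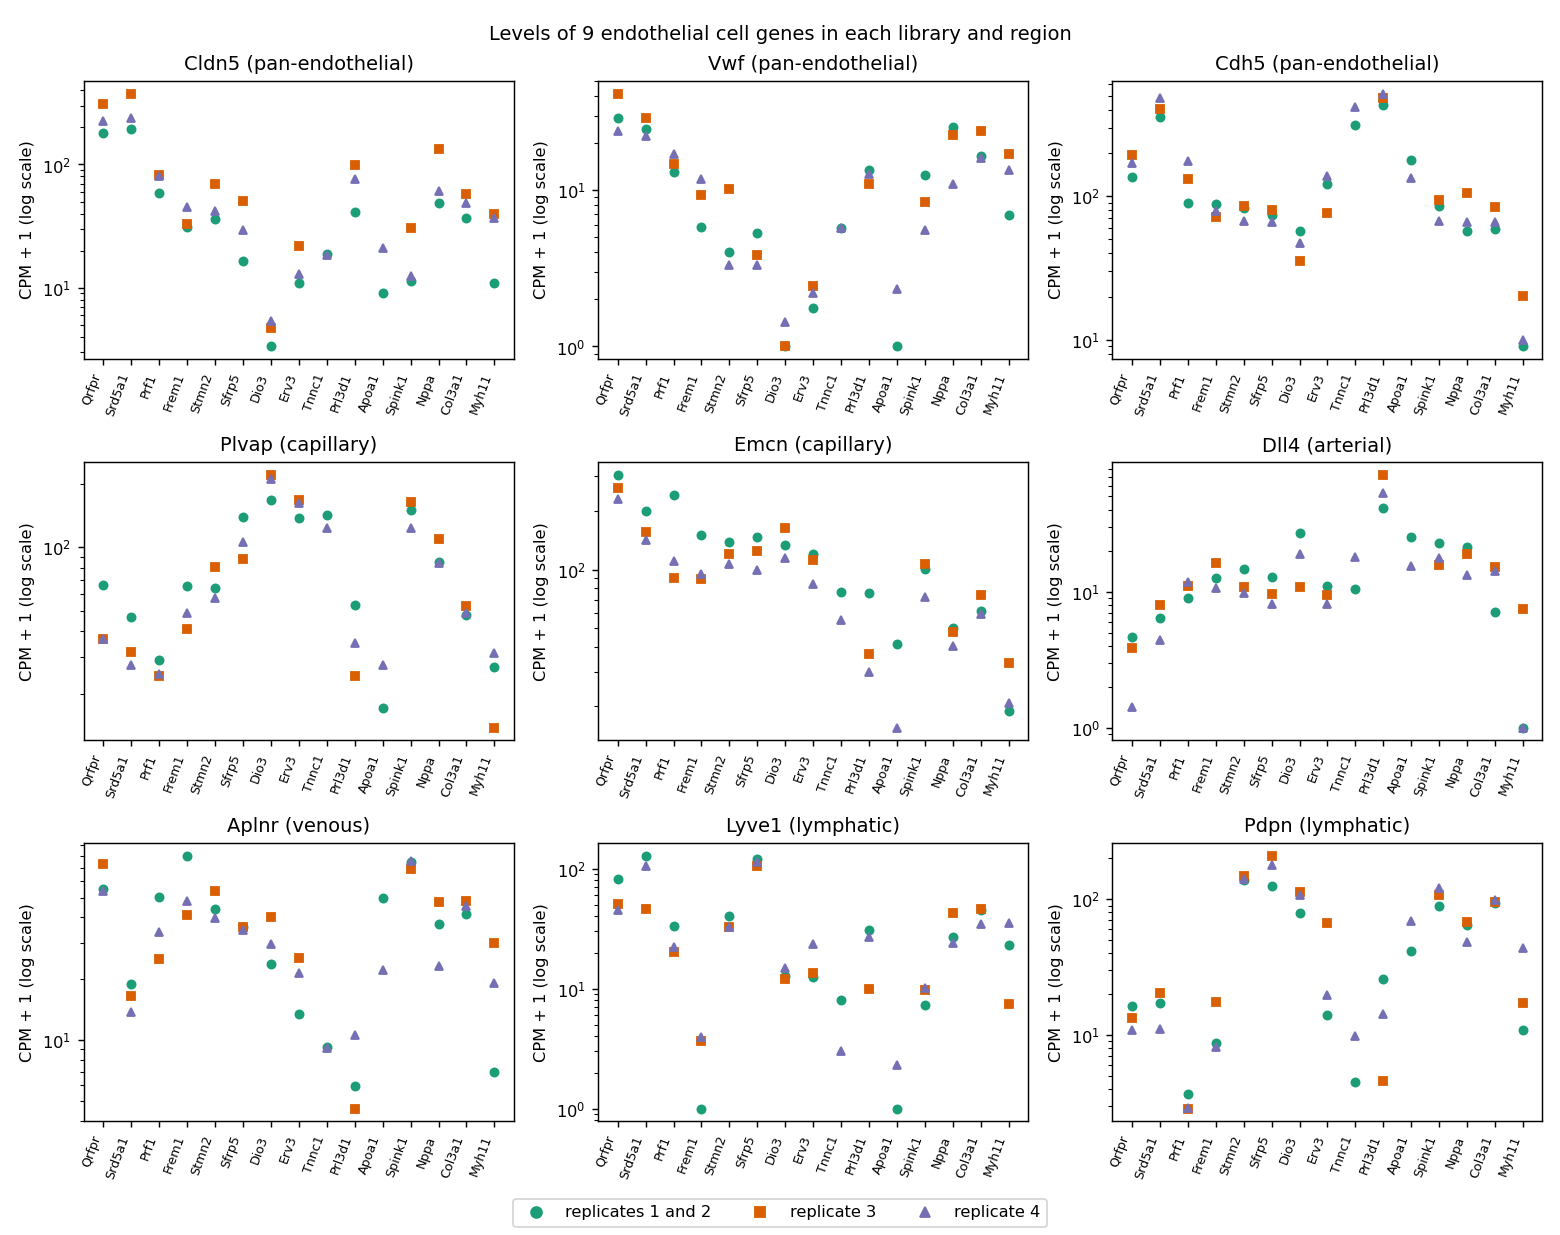
CPM + 1 on a log scale for 9 members in each region, with 1 point per library. Cldn5 and Vwf fall from the Qrfpr region to the Dio3 region in each library, while Plvap rises, and Dll4 peaks in the Prl3d1 region.

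Regions were compared to see how the members differ between parts of the tissue. Sums per library and region were fitted with edgeR's quasi-likelihood test on 6438 genes, of which 32 were members. Nrp1 and Prox1 were too low to test. A gene is called where its Benjamini-Hochberg adjusted p is under 0.05 and its log2 fold change is at least 1 in size. Overlap between regions describes the library values of the genes named. Its share over all tested genes was not computed, so a lack of overlap adds nothing to a call. Values named scaled CPM are scaled to the UMIs of the tested genes after edgeR's TMM scaling and cannot be set beside plain CPM. The 7 comparisons with the Erv3 region share its sums, so they are not independent of each other.

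In the Qrfpr region, 18 of the 32 members tested were higher than in the Erv3 region and 3 were lower. Of all tested genes, 17.0% were called higher and 11.5% lower, and the median log2 fold change was 1.16 for the members and 0.05 for all genes. The genes that chose the Qrfpr region were partly chosen from earlier results of these data, so that choice is not independent of them. Among the 19 pan-endothelial genes, 12 were higher and none was lower. Cldn5 had 335, 600.1 and 435 scaled CPM in the Qrfpr region against 28.3, 55.8 and 32.6 in the Erv3 region, a log2 fold change of 3.56 ± 0.19 (SE of the fit; edgeR, adjusted p = 1.7e-19). The groups did not overlap, and the lowest Qrfpr library was several-fold above the highest Erv3 library. Vwf had 52.5, 78.5 and 44.6 against 2.18, 3.87 and 3.26 scaled CPM (4.11 ± 0.38, adjusted p = 2.2e-12), again without overlap.

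Tek, Tie1, S1pr1 and Eng, all receptors or co-receptors, rose, whereas the receptors Kdr, Flt1 and Robo4 were not called. Tek, the angiopoietin receptor, had 111, 123 and 76.9 against 19.6, 23.2 and 16.3 scaled CPM (2.35 ± 0.26, edgeR adjusted p = 4.8e-10). Tie1, its partner receptor, had 113, 273 and 186 against 45.7, 87.5 and 50.02 (1.64 ± 0.19, adjusted p = 8.9e-10). S1pr1, the sphingosine phosphate receptor that tightens the barrier, rose by 1.74 ± 0.19 on the log2 scale, and Eng, a co-receptor of BMP ligands, by 1.30 ± 0.16. None of these 4 genes overlapped between the regions. Egfl7, a secreted vessel protein, rose by 1.53, the surface sialomucin Cd34 by 1.38, the junction protein Esam by 1.26, the adrenomedullin receptor partner Ramp2 by 1.26 and the ETS factor Erg by 1.57. Sox7, a SOX factor of early vessels, was counted at 14 UMIs in the Qrfpr region and 1 UMI in the Erv3 region, a ratio of 10.7 with an exact 95% counting interval of 1.63 to 452.

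Other pan-endothelial genes did not pass. Pecam1 had 293, 344 and 290.1 scaled CPM in the Qrfpr region and 292, 268 and 309 in the Erv3 region (log2 fold change 0.10 ± 0.14, edgeR adjusted p = 0.58), and Cdh5 had a log2 fold change of 0.08 ± 0.19 (adjusted p = 0.78). Their libraries overlapped. Mmrn2 (-0.13), Ptprb (-0.04), Sox18 (0.31) and Robo4 (-0.64) were not called, and Icam2 stood just under the fold threshold at 0.95 without overlap between the groups.

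By class, the same comparison gave these values. Of the capillary genes, Plvap was lower, with 122, 69.0 and 68.6 scaled CPM in the Qrfpr region against 385, 443 and 443 in the Erv3 region (-2.33 ± 0.18, edgeR adjusted p = 2.4e-14). Kdr (0.15) and Flt1 (-0.29), the VEGF receptors, were not called, and Emcn reached 0.82 ± 0.16 without passing the fold threshold. Of the venous genes, the apelin receptor Aplnr and the semaphorin and VEGF co-receptor Nrp2 rose by 1.06 each, and Ephb4, the receptor of ephrin-B2, had 0.82. Of the arterial genes, the SOX factor Sox17 rose by 1.34 and the ephrin Efnb2 by 1.61, whereas Dll4 fell by 2.36, from 28.3, 22.5 and 19.6 to 6.80, 5.55 and 0.827 scaled CPM. Of the lymphatic genes, Flt4 rose by 1.72 and the hyaluronan receptor Lyve1 by 1.30, while the mucin-like protein Pdpn fell by 1.97. Prox1, the factor that sets lymphatic identity, had 1 UMI in the Qrfpr region and none in the Erv3 region, where a count of 0 allows up to 0.413 CPM.

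**Figure D4:**
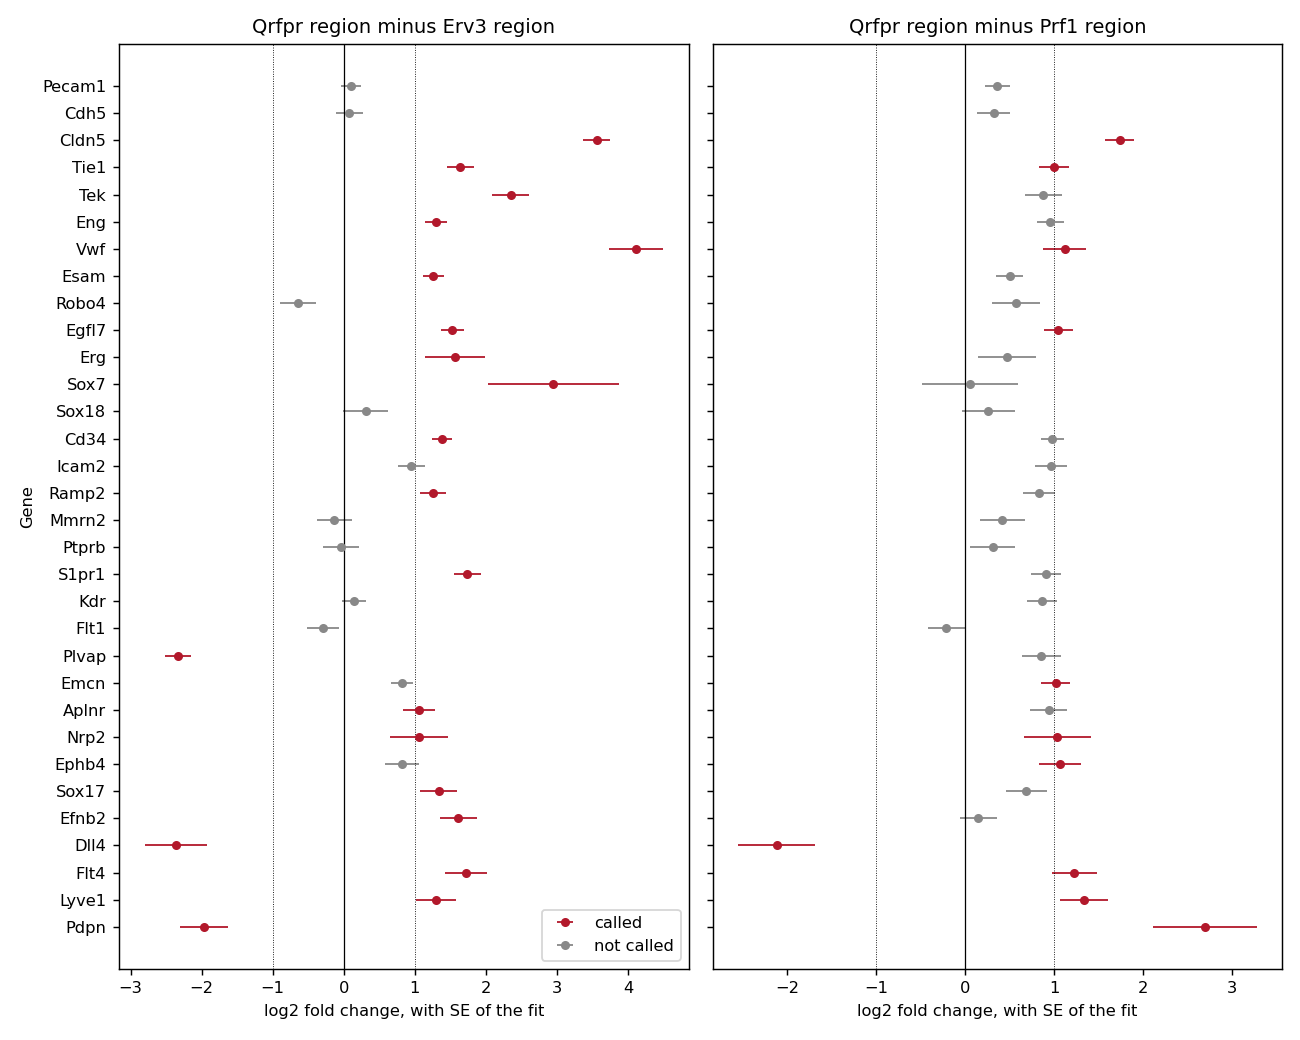
Log2 fold change with the SE of the fit (horizontal axis) for 32 members (vertical axis), for the Qrfpr region minus the Erv3 region and minus the Prf1 region; red points are called. Vwf (4.11) and Cldn5 (3.56) lie farthest to the right on the left side of the plot, and Plvap and Dll4 farthest to the left; the Sox7 point there rests on 1 UMI in the Erv3 region.

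Other cell types moved with this comparison. All 7 pericyte genes were lower in the Qrfpr region (median -2.74), and their summed level was 30.3 to 52.7 CPM there and 170 to 216 CPM in the Erv3 region. All 5 tested blood genes were higher, with 599 to 4880 CPM against 115 to 158 CPM summed. Of 8 macrophage genes 4 were higher and 1 was lower (median 1.06), with 222 to 443 CPM summed against 104 to 124 CPM. The genes of platelets and megakaryocytes, cells that also hold Vwf, had 1 of 3 tested higher and 1 lower (median 1.14), while their plain sum was 25.4 to 32.9 CPM in the Qrfpr region and 23.8 to 61.6 CPM in the Erv3 region. The part of these lists in the result was not tested, for Lyve1 and Vwf included. Without replicate 3, Pdpn stood at -0.93 (edgeR adjusted p = 0.035) and Sox7 at 1.87 (0.22), and without replicates 1 and 2, Lyve1 stood at 0.99. Nrp2 lost its call without any 1 of the libraries, with values of 1.02 to 1.12 (adjusted p = 0.051 without replicates 1 and 2, 0.14 without replicate 3 and 0.12 without replicate 4). With clustering on the other genes, the Qrfpr zone shared 190 of its 278 spots with the new one. Aplnr (0.97), Nrp2 (0.41, edgeR adjusted p = 0.44), Pdpn (-0.47, 0.17) and Sox7 (1.14, 0.30) then missed the call. At clustering resolution 1.0, Lyve1 (0.22, 0.71), Nrp2 (0.99, 0.20) and Ramp2 (0.94) missed it.

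Against the Prf1 region, 10 of the 32 members were higher in the Qrfpr region and 1 was lower, where 3.57% and 6.99% of all tested genes were called. The median was 0.87 for the members and -0.02 for all genes. Pdpn had 29.1, 23.8 and 19.0 scaled CPM in the Qrfpr region and 4.69, 3.68 and 3.59 in the Prf1 region (2.70 ± 0.58, edgeR adjusted p = 0.00047). Cldn5 had 335, 600.1 and 435 against 101, 161 and 151 (1.74 ± 0.16, adjusted p = 4.7e-11). For both genes each Qrfpr library was above every Prf1 library. All 3 lymphatic genes tested were higher, with Lyve1 at 1.34 and Flt4 at 1.23, and so were Vwf (1.12), Ephb4 (1.07), Egfl7 (1.05), Nrp2 (1.04), Emcn (1.02) and Tie1 (1.00). Ephb4 and Nrp2 overlapped between the regions. The lymphatic genes Prox1, Mmrn1 and Ccl21a did not share this rise and had few UMIs. Prox1 had 1 UMI in each region, Mmrn1 had 2 in each, and Ccl21a had 3 in the Qrfpr region against 7 in the Prf1 region. Dll4 was the gene that was lower, at -2.12 ± 0.43, with 14.1, 19.8 and 20.1 scaled CPM in the Prf1 region.

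These counts depended on single libraries. Without replicate 3, 4 members were called higher, and Tie1 (0.75), Egfl7 (0.85), Emcn (0.78), Vwf (0.79), Ephb4 (0.84) and Nrp2 (0.64) missed the call. Without replicate 4, Dll4 stood at -1.57 (edgeR adjusted p = 0.053), Emcn at 0.94 and Nrp2 at 1.01 (0.23), and no member was called lower. Without the replicate block (library as a term of the fit) 6 members were called higher. The macrophage genes were lower in the Qrfpr region for 6 of 8 tested, with a summed level of 222 to 443 CPM against 697 to 1354 CPM in the Prf1 region. All 5 blood genes tested were higher (median 2.59, 599 to 4880 CPM against 149 to 973 CPM), and 5 of 8 epithelial and gland genes were lower (median -2.82, 5.69 to 35.9 CPM against 45.4 to 379 CPM). Their part was not tested.

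In the Prf1 region against the Erv3 region, 6 members were higher and 3 were lower, beside 18.5% and 11.3% of all tested genes. The members' median was 0.08, like that of all genes at 0.09. Vwf had 21.1, 27.2 and 30.2 scaled CPM in the Prf1 region (2.99 ± 0.43, edgeR adjusted p = 1.2e-07), Cldn5 had 101, 161 and 151 (1.82 ± 0.20, adjusted p = 3.5e-10) and Tek rose by 1.47, Efnb2 by 1.46 and Erg by 1.09. Sox7 had 15 UMIs against 1, a ratio of 10.0 (exact 95% counting interval 1.54 to 422). Pdpn fell by 4.67 ± 0.47, from 37.0, 176 and 51.1 to 4.69, 3.68 and 3.59 scaled CPM, and the Prf1 region was the lowest of the 15 for Pdpn. Plvap fell by 3.18 ± 0.20 and Robo4, a guidance receptor that stabilises vessels, by 1.2 ± 0.27. Erg and Robo4 overlapped between the regions. Erg lost its call without any 1 library (adjusted p = 0.057 without replicates 1 and 2, 0.19 without replicate 3 and 0.14 without replicate 4), and without replicate 3 so did Robo4 (-0.77) and Sox7 (2.18, 0.14). All 7 pericyte genes were lower here too, at 58.7 to 95.2 CPM summed, and 7 of 8 macrophage and 5 of 8 epithelial genes were higher. Their part was not tested. The Prf1 region was chosen narrowly over the Frem1 region by its gene list (mean z-score 1.868 against 1.784). With at least 5000 UMIs per spot that list picked mostly Frem1 spots, the Erv3 list mostly Tnnc1 spots, and Vwf then stood at 0.44 (edgeR adjusted p = 0.49) and Cldn5 at 0.22 (0.63). At resolution 1.0, again with mostly Frem1 spots, Cldn5 stood at 0.61 (0.22). These values compare other tissue.

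The Dio3 region, read against the Erv3 region, changed little as a whole: 6.23% of genes were higher and 4.95% lower. Of the members 3 were higher and 2 were lower, with a median of 0.10 beside 0.04 for all genes. Cldn5 fell by 2.17 ± 0.36 (5.35, 8.20 and 9.82 scaled CPM, edgeR adjusted p = 9.8e-06) and Cdh5 by 1.51 ± 0.22 (128, 76.5 and 105 against 340, 201 and 375 scaled CPM, adjusted p = 8.5e-07), both without overlap. Efnb2 rose by 1.55 ± 0.28 (67.8, 62.9 and 85.4 against 24.0, 24.8 and 25.0 scaled CPM) and Pdpn by 1.27 ± 0.27. Sox7 had 9 UMIs against 1, a ratio of 12.3 (interval 1.71 to 542). The capillary receptors Kdr (0.58 ± 0.18) and Flt1 (0.60 ± 0.22) were above the Erv3 region in every library without reaching the fold threshold. Of 8 epithelial genes 4 were higher, at 158 to 325 CPM summed against 30.9 to 58.7 CPM, and their part was not tested. Without replicate 4 the only member called higher was Efnb2, with Pdpn at 0.91 (adjusted p = 0.092) and Sox7 at 5.01 (0.074). Sox7 also lost its call without replicates 1 and 2 (2.64, 0.15) and without replicate 3 (2.53, 0.12).

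Relative to the core, the capillary genes were most abundant in this region. They summed to 1042, 1019 and 1210 UMIs per 1000 core UMIs in the Dio3 region, to 704, 700 and 651 in the Erv3 region and to 444, 281 and 319 in the Qrfpr region. No library of another region reached the values of the Dio3 region. The Prl3d1 region was lowest, with 188, 90.7 and 127. The arterial genes were at 197, 129 and 193 per 1000 core UMIs in the Dio3 region and at 189, 125 and 168 in the Stmn2 region, which overlapped. The venous genes were highest per core UMI in the Myh11 region, where the core itself is lowest. These ratios describe the sums and carry no test. In the Dio3 region none of the 4 capillary genes was called against the Erv3 region (median log2 fold change 0.34), while Cdh5, a core gene, was called lower.

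**Figure D5:**
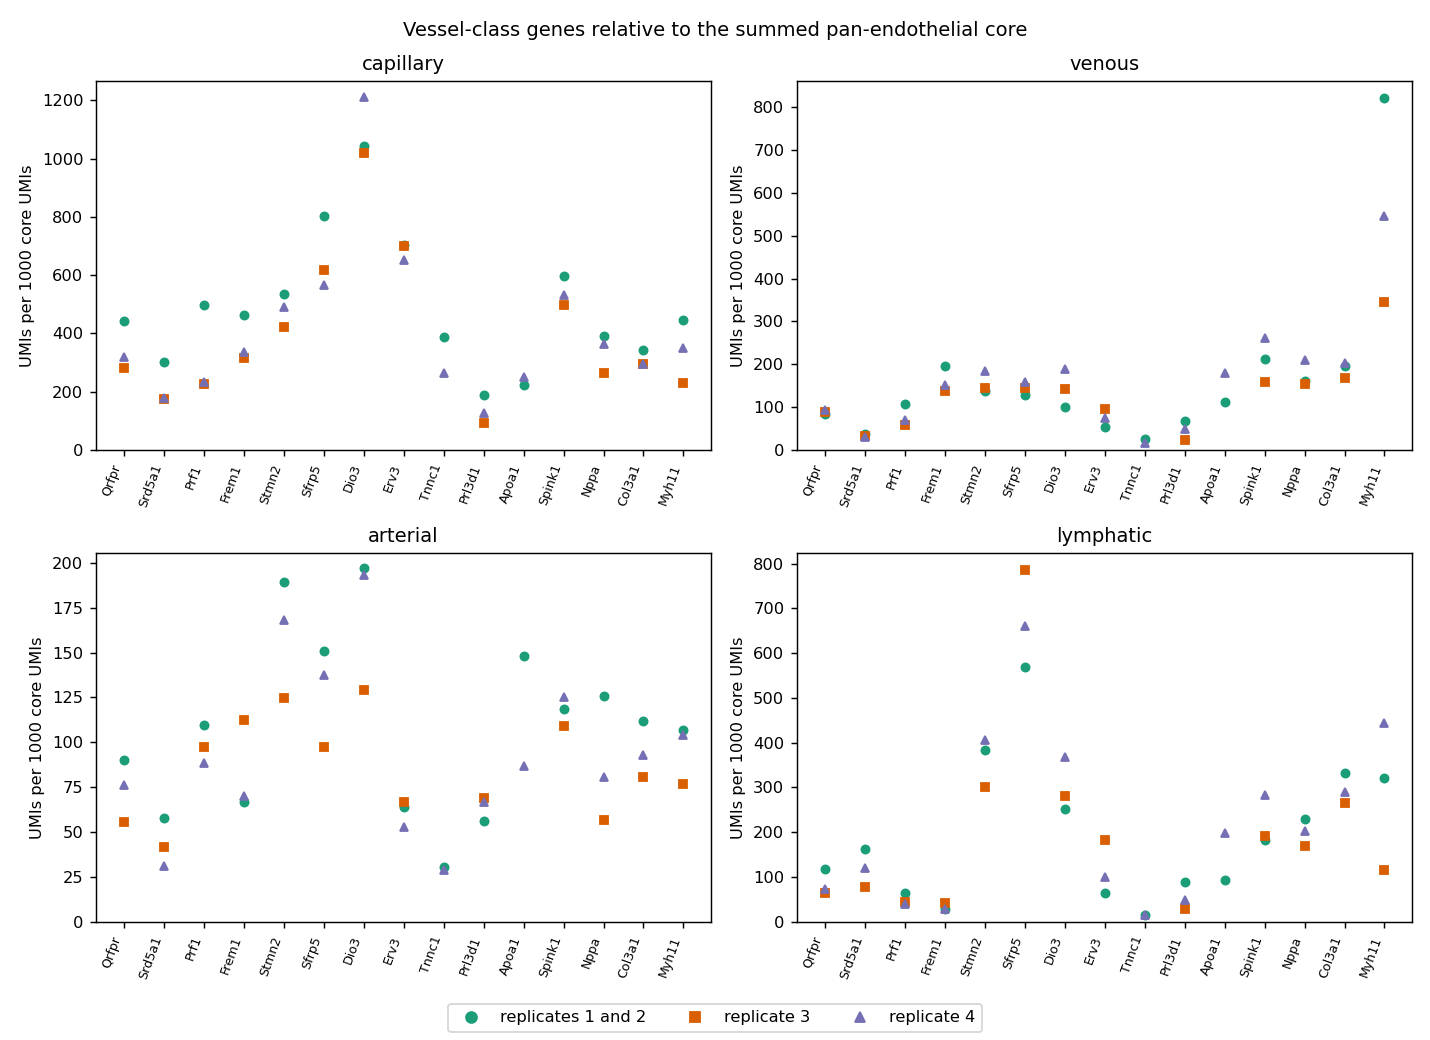
UMIs of the capillary, venous, arterial and lymphatic genes per 1000 UMIs of the core (vertical axes, from 0) in 15 regions, with 1 point per library. The capillary genes peak in the Dio3 region (1019 to 1210), the lymphatic genes in the Sfrp5 region (569 to 786) and the venous genes in the Myh11 region (346 to 821).

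In the Myh11 region, which holds muscle genes, the capillary genes were low. Beside 22.1% and 17.9% of all tested genes, 4 members were higher and 12 were lower than in the Erv3 region, with a median of -0.71 (0.06 for all genes). All 4 capillary genes were lower: Plvap fell by 3.05, Kdr by 2.75, Emcn by 2.62 and Flt1 by 1.85. Cdh5 fell by 3.69 ± 0.37, to 16.7, 41.3 and 18.6 scaled CPM, and Pecam1 by 3.08 ± 0.25, to 37.7, 34.4 and 29.8 (edgeR adjusted p = 1.3e-11 and 3.9e-14). Neither overlapped with the Erv3 region. Ptprb, the phosphatase that acts on Tek, fell by 2.05, Mmrn2 by 2.00, S1pr1 by 1.64, Esam by 1.42 and Tie1 by 1.22. Mmrn2 and Tie1 overlapped between the regions. Dll4 had 2 UMIs against 60, a ratio of 0.136 (exact 95% counting interval 0.0161 to 0.514).

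Nrp2 went the other way in the Myh11 region, with 96.2, 68.8 and 52.1 scaled CPM against 6.53, 6.97 and 6.52 (3.26 ± 0.41, edgeR adjusted p = 7e-09). Ephb4, another venous gene, rose by 1.54 ± 0.31 and Vwf by 2.82 ± 0.62. For these 3 genes the groups did not overlap. Sox7 had 3 UMIs against 1, a ratio of 12.3 whose interval reaches from 0.985 to 644, and it lost its call without any 1 library (adjusted p = 0.42 without replicates 1 and 2, 0.11 without replicate 3 and 0.068 without replicate 4). Without replicates 1 and 2, Mmrn2 (-1.22, adjusted p = 0.073) and Dll4 (-2.10, 0.054) were lost, and without replicate 4, Tie1 (-1.07, 0.11), S1pr1 (-1.33, 0.16) and Dll4 (-2.16, 0.079). The platelet and megakaryocyte genes summed to 96.8 to 122 CPM in this region and the macrophage genes to 635 to 765 CPM, above the Erv3 region for both lists, and their part was not tested. With clustering on the other genes, the Myh11 zone had 396 spots, which held 145 of the 146 used here. Ptprb (-0.45, edgeR adjusted p = 0.22), Mmrn2 (-0.60, 0.069), S1pr1 (-0.59, 0.10) and Esam (-0.03, 0.90) then missed the call. So did Dll4 (-0.59, 0.16), Sox7 (1.55, 0.14) and Tie1, which stood at 0.04 (0.91).

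In the Col3a1 region, 5 members were higher and 4 were lower than in the Erv3 region, beside 24.5% and 15% of all genes, with medians of 0.54 and 0.12. Vwf rose by 3.30 ± 0.41, to 28.6, 42.8 and 27.8 scaled CPM, Nrp2 by 2.48 ± 0.35, to 52.4, 34.4 and 37.1, Cldn5 by 1.14 ± 0.21 and Tek by 1.02 ± 0.30. Sox7 had 18 UMIs against 1, a ratio of 13.4 (interval 2.12 to 560.2). Plvap fell by 2.23, Cdh5 and Emcn by 1.23 and Pecam1 by 1.13. The called genes did not overlap between the regions. Tek missed the call without replicates 1 and 2 (0.97, edgeR adjusted p = 0.025) and without replicate 3 (0.77, 0.099), and Cdh5 without replicate 4 (-0.96). All 5 blood genes tested were higher in the Col3a1 region (median 4.34, 2162 to 5421 CPM summed against 115 to 158 CPM), as were 2 of 3 platelet and megakaryocyte genes, with 1 lower (median 2.50, mean sum 106 ± 0.451 CPM, SD, n = 3, against 23.8 to 61.6 CPM), and 3 of 4 mesothelium genes (median 3.60, 37.5 to 56.2 CPM against 6.95 to 20.9 CPM). Their part, that of platelets in Vwf included, was not tested. The Col3a1 region was chosen narrowly over the Spink1 region (mean z-score 1.080 against 1.028). With at least 5000 UMIs per spot its list picked mostly Spink1 spots, against mostly Tnnc1 spots for the Erv3 list, and Vwf stood at 0.31 (adjusted p = 0.68) and Nrp2 at 1.05 (0.059).

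Of the 31 Prox1 UMIs in all regions, 22 (71.0%) were in the Col3a1 region, 15 of them in replicate 3, too few for a test. Nrp1, an arterial co-receptor, had 70 UMIs in all, 18 of them there. Mmrn1, a lymphatic multimerin, had 94 UMIs and none in the Erv3 region, and was at least 23.4-fold higher against a floor of 3 UMIs over the group. Ccl21a, the chemokine of lymphatic vessels, had 694 UMIs against 2, a ratio of 259 (exact 95% counting interval 71.5 to 2144). Both were higher still in the Nppa region, with 13.0, 25.2 and 24.3 CPM of Mmrn1 and 129, 281 and 290.3 CPM of Ccl21a, against 17.3, 17.0 and 9.74 CPM and 60.6, 136 and 90.7 CPM in the Col3a1 region. The libraries of the 2 regions overlapped for both genes. The lymphatic members themselves stood at 0.60 for Flt4, 0.80 for Lyve1 and 0.91 for Pdpn, under the fold threshold. The macrophage genes summed to 870 to 1120 CPM here and to 104 to 124 CPM in the Erv3 region, with 6 of 8 tested higher, and their part in Lyve1 was not tested.

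Lyve1 and Pdpn had their highest means elsewhere, in the Sfrp5 region. Lyve1 had 120, 104 and 114 CPM and Pdpn 124, 208 and 177 CPM there. Lyve1 overlapped with the Srd5a1 region (127, 44.9 and 104 CPM) and Pdpn with the Stmn2 region (137, 147 and 140.0 CPM). The 4 lymphatic genes summed to 251, 316 and 295 CPM, above every library of the other 14 regions. The same region had no Prox1 UMI, which allows up to 0.584 CPM, and the macrophage genes were at their lowest of all regions there, with 67.6 to 78.6 CPM summed. Lyve1 was lowest in the Apoa1 region (0 and 1.32 CPM) and had 0, 2.68 and 2.98 CPM in the Frem1 region. Flt4 did not follow: its highest region was Srd5a1, with 42.4, 63.3 and 61.3 CPM.

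In the Prl3d1 region, with trophoblast genes, members lay above and below the Erv3 region. Of the 32 tested, 8 were higher and 8 were lower, beside 15.1% and 14.8% of all genes, and both medians were near 0 (-0.06 and -0.04). Cdh5 had 874, 979 and 1100 scaled CPM against 340, 201 and 375 (1.71 ± 0.19, edgeR adjusted p = 4.8e-10). Dll4 had 81.3, 144 and 110.1 against 28.3, 22.5 and 19.6 (2.38 ± 0.28, adjusted p = 1.6e-09). Each Prl3d1 library was above every Erv3 library for both. Nrp2 rose by 3.24, Vwf by 2.81, Cldn5 by 1.95, Flt4 by 1.86 and Esam by 1.59, and Sox7 had 8 UMIs against 1, a ratio of 13.1 (interval 1.76 to 583).

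Lower in the Prl3d1 region were Plvap (-2.60), Pdpn (-1.98), Aplnr (-1.89), Robo4 (-1.78), Emcn (-1.76), Cd34 (-1.39), Sox18 (-1.29) and Ramp2 (-1.23). Pdpn and Sox18 overlapped between the regions. Emcn had 152, 72.8 and 61.3 scaled CPM against 335, 297 and 229, with no overlap. Epithelial genes with keratins (4 of 8 higher and 2 lower, 1658 to 1834 CPM summed), embryo genes (5 of 6 higher) and blood genes (5 of 5 higher, 7889 to 9834 CPM) rose in the same spots, while all 7 pericyte genes were lower (11.7 to 37.3 CPM summed). Their part was not tested. Without replicate 3, Pdpn stood at -0.48 (adjusted p = 0.37), Sox18 at -0.85 (0.31) and Sox7 at 2.78 (0.064). Sox18 (-1.32, 0.066), Sox7 (2.71, 0.076) and Ramp2 (-0.99) also missed the call without replicates 1 and 2, and Sox18 (-1.58, 0.10) without replicate 4. With at least 5000 UMIs per spot, the Prl3d1 zone shared 124 spots with the one used here, but the Erv3 list picked mostly Tnnc1 spots, and Cdh5 stood at 0.05 (adjusted p = 0.84), Esam at 0.52 (0.022) and Vwf at 1.14 (0.077).

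In the Apoa1 region, which holds embryo and endoderm genes and rests on 54 spots in 2 libraries, 2 members were higher and 14 were lower than in the Erv3 region, beside 17.0% and 19.1% of all genes. The median was -0.91, or -0.85 with Erg set at a floor of 3 UMIs, against -0.08 for all genes. Plvap had 24.3 and 48.6 scaled CPM against 385, 443 and 443 (-3.24 ± 0.33, edgeR adjusted p = 5.8e-11), Emcn fell by 2.97, Eng by 2.83 and Cd34 by 2.58, all without overlap. Lyve1 had 1 UMI against 115, a ratio of 0.0470 (interval 0.00118 to 0.267), and Robo4 1 UMI against 93, a ratio of 0.0581 (0.00146 to 0.332). Erg had none, which allows up to 3.41 CPM. Pecam1 and Tie1 fell by 1.63, Mmrn2 by 2.26, Icam2 by 1.42 and Ramp2 by 1.36. Sox18, Ptprb and S1pr1 were lower too and counted at 1 or 2 UMIs. Sox7 was higher, with 8 UMIs against 1 (ratio 43.3, interval 5.80 to 1919), and its 16.2 and 7.93 CPM in this region were above all libraries of other regions. Embryo genes (6 of 6 higher, 784 to 890.0 CPM summed) and epithelial genes (6 of 8 higher, 1254 to 1353 CPM) rose in the same spots, as did 4 of 5 blood genes (3310 to 5607 CPM against 115 to 158 CPM). Pericyte genes (6 of 7 lower, 31.7 to 56.6 CPM against 170 to 216 CPM) and platelet and megakaryocyte genes (2 of 3 lower, 0 to 6.61 CPM against 23.8 to 61.6 CPM) fell. Their part was not tested.

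Leaving out either library leaves 1 Apoa1 library, which is then assumed to vary like the other regions. Without replicate 4, 6 members were called lower and 1 higher in the Apoa1 region. Nrp2, at 0 and 36.5 scaled CPM in its 2 libraries, turned from 1.97 to -5.85 (edgeR adjusted p = 0.51). Pecam1 (-1.24, 0.059) and Icam2 (-0.65, 0.73) missed the call there, as did S1pr1 (-0.64, 0.84). Tie1 (-8.01, 0.15), Robo4 (-8.16, 0.078), Mmrn2 (-8.15, 0.12), Lyve1 (-7.94, 0.25), Ptprb (-7.44, 0.15) and Sox18 (-6.94, 0.30) missed it with larger fitted folds, which depend on the prior count because the library left had none of their UMIs. Without replicates 1 and 2, Sox18 (-2.17, 0.11) and Ptprb (-2.07, 0.050) missed it.

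The ligands and partners of these receptors followed their own orders. Angpt2, the ligand of Tek that loosens vessels, had 1572, 1407 and 1322 scaled CPM in the Qrfpr region and 795, 777 and 774 in the Erv3 region (0.88, under the fold threshold), and fell to 67.8, 87.5 and 76.6 in the Dio3 region (-3.35 relative to the Erv3 region, edgeR adjusted p = 1.5e-12). Vegfa, the ligand of Kdr and Flt1, had 216, 137 and 196 scaled CPM in the Dio3 region and 122, 104 and 131 in the Erv3 region (0.60, not called), and was lower in the Col3a1 (-2.01), Myh11 (-3.34) and Apoa1 (-2.16) regions than in the Erv3 region. Vegfd, a ligand of Flt4, had only 10 UMIs over the libraries of the Erv3 region. Against that shared low count it was higher in the Qrfpr (4.07), Prf1 (4.17), Col3a1 (5.96) and Myh11 (5.78) regions. Pgf, the ligand of Flt1 made by trophoblast, rose by 3.28 in the Prl3d1 region. Of 13 ligands tested, 2 were higher and 2 lower in the Qrfpr region than in the Erv3 region (median 0.18). Of 28 other endothelial genes 11 were higher and 3 lower (median 0.92). In that comparison 17.0% of all tested genes were called higher and 11.5% lower (median 0.05), so the ligand counts lie near the shares of all genes.

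Notch4, the endothelial Notch receptor, was lower than in the Erv3 region in each of the 7 regions compared with it, from -1.11 in the Dio3 region to -4.02 in the Apoa1 region. It had 301, 259 and 421 scaled CPM in the Erv3 region and 52.5, 34.1 and 41.3 in the Qrfpr region. The capillary lipase anchor Gpihbp1 was lower in 6 of the 7, with 1705, 2025 and 1505 scaled CPM in the Erv3 region and 211, 185 and 113 in the Qrfpr region (-3.38). In the Qrfpr region the Notch target Hey1 had 3 UMIs against 25, a ratio of 0.0915 (interval 0.0177 to 0.300), whereas Notch1 (1.36), Jag2 (1.37) and Hes1 (1.2) rose. Of 9 Notch genes tested, 3 were higher and 3 lower there (median -0.11), beside 17.0% and 11.5% of all tested genes.

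Across all 43 region sums, centred within library, the genes most like the core were Adgrf5 (Pearson r = 0.865, of 4339 genes ranked), Angpt2 (0.850), Nectin2 (0.844), Pcdh1 (0.829), Pi4k2b (0.829), Jam2 (0.825), Trim25 (0.812), Tmem140 (0.801), Nsd3 (0.792) and AA467197 (0.784). The sums share libraries, depth and tissue, so these r are a description. Among the members, Esam (0.945), Pecam1 (0.867), Cdh5 (0.782), Kdr (0.762) and Icam2 (0.743) followed the rest of the core most closely. Pdpn (-0.40), Ephb4 (-0.28), Robo4 (-0.25), Aplnr (-0.11), Prox1 (-0.11) and Plvap (-0.11) had the lowest r. Cd34 (-0.08), Nrp2 (-0.07), Efnb2 (0.02), Sox18 (0.04), Sox7 (0.05) and Nrp1 (0.08) did not follow the core either. Robo4, Aplnr, Ptprb, Sox18 and Erg had instead their highest means in the Spink1 region, each overlapping with the next region, which for Robo4 was Dio3 (33.2 against 32.1 CPM), for Erg and Aplnr Qrfpr and for Ptprb and Sox18 Col3a1. The Spink1 region held the most epithelial and gland RNA (4913 to 8116 CPM summed). Aplnr had 73.9, 67.7 and 74.8 CPM there, which overlapped with the 53.8, 72.1 and 53.0 CPM of the Qrfpr region. Across single spots thinned to 3000 UMIs the members were only weakly related, with a highest median Spearman rho of 0.173, for Cdh5 and Esam, and in counts this sparse that is no finding.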

How the data were processed

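Visium slides of uterine sections at pregnancy day 7.5 gave 3 libraries of 1 group. The deposited values are whole UMI counts for each gene and spot. They come from Space Ranger 1.2.2, per the file headers. Cell Ranger and mm10 appear in the submitters' processing notes, and the annotation is not given in the sources used here. The members and lists were chosen with earlier results of these data known.

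Spots with at least 1000 UMIs were clustered (Leiden, resolution 0.6, seed 0, 15 neighbours, 20 components, leidenalg 0.10.2) on the 1500 most variable of 16142 randomly drawn genes, without listed genes and centred within library. Genes outside that draw and the listed genes were tested. A region was chosen for comparison where the mean z-score of its gene list was highest, by narrow margins for Prf1 (1.868 against 1.784 for Frem1) and Col3a1 (1.080 against 1.028 for Spink1). UMIs were summed per library and region (at least 20 spots, at least 2 libraries) into 43 sums of 123593 to 4275771 UMIs. edgeR 4.0.16 (filterByExpr, TMM, quasi-likelihood) had the library as a block, since the regions of a library come from the same sections, and gave Benjamini-Hochberg adjusted p-values over 6438 genes. TMM factors were 0.698 to 0.825 in the Erv3 region and 1.10 to 1.14 in the Qrfpr region. These p-values measure the spread left between libraries after that block. For each gene it was estimated over all 43 sums together, not from the 2 compared regions alone, and no more than 3 libraries lie behind it. No doublet caller was run on spots. A count of 0 was given a limit of 3 counts, and ratios with 1 to 3 counts exact 95% intervals; both cover counting error only. The fit was tested on simulated data for the Qrfpr against Erv3 comparison (6438 genes): 36% of genes raised 1.5-fold, 74% raised 2-fold, 96% raised 4-fold, 54% of those lowered 2-fold and 0.273% of unchanged genes passed an adjusted p of 0.05. These rates leave out the fold threshold of a call, and the genes raised 2-fold had a median log2 fold change of 1.01. The simulation held 1 mean per gene, no library effect and a spread set by expression level, so it does not give call rates for the real data.

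The text names, per comparison, up to 6 called members with the largest rise, 4 with the largest fall, every called capillary, venous, arterial and lymphatic member, and up to 4 called genes of the pathway lists; others were named after their values were seen. Alternatives were relative log expression scaling, DESeq2 1.42.0, no filter, no replicate block, clustering on the other genes, resolution 1.0, at least 5000 UMIs per spot and each library left out. Spot positions and images were not used here.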

Additional observations from a re-analysis of the deposited data

How the results depend on the processing

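Of 1001 values of the 103 called member differences under alternatives, 858 kept direction and call, 132 lost the call and 11 reversed. With at least 5000 UMIs per spot the list rule picked other tissue (the Erv3 zone then shared a Jaccard index of 0.123 with its spots, mostly Tnnc1 spots, and the Apoa1 comparison was not made), and Esam (-0.07), Nrp2 (-0.15) and Pdpn (1.59) reversed for Qrfpr minus Erv3, Tie1 (0.45) and Ptprb (0.32) for Myh11, Cldn5 (-0.09) for Col3a1, Pdpn (0.05) for Prl3d1 and Nrp2 (-0.56) for Qrfpr minus Prf1. With clustering on the other genes Tie1 (0.04) reversed for Myh11 and Nrp2 (-0.19) for Qrfpr minus Prf1, and without replicate 4 Nrp2 for Apoa1 (-5.85, against 2.23 without replicates 1 and 2; each fit holds 1 Apoa1 library, at 0 or 36.5 scaled CPM of Nrp2). With at least 5000 UMIs, 5 members were lower for Qrfpr and 5 for Prf1, 9 higher and 6 lower for Myh11, 8 higher for Col3a1, 8 higher and 6 lower for Dio3 and 5 higher for Prl3d1, all against Erv3. With clustering on the other genes, 6 were lower for Myh11, 12 higher and 0 lower for Col3a1 (then mostly Spink1 spots), and 2 higher and 0 lower for Qrfpr minus Prf1. At resolution 1.0, 5 were lower for Prf1, whose zone was then mostly Frem1 spots (Jaccard index 0.282), and 2 for Col3a1, mostly Spink1 spots with 4 shared (0.0059). Relative log expression scaling and DESeq2 each gave 8 higher for Col3a1. Without the replicate block, 6 members were higher for Qrfpr minus Prf1, and no other count moved by over 1.5 times. Leaving out 1 library gave 1 to 3 members higher for Dio3, 1 to 3 higher and 6 to 14 lower for Apoa1, and 4 to 15 higher and 0 to 1 lower for Qrfpr minus Prf1. Causes were not tested beyond the zones named. Scaling by relative log expression moved the median of all genes from 0.06 to 0.25 for Myh11, 0.12 to 0.24 for Col3a1 and -0.08 to 0.03 for Apoa1. Depth limits Prox1, Nrp1, Sox7 and Erg.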
